A study of Mus musculus with 12 samples.

Results

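Srebf1, Srebf2, Scap, Insig1, Insig2, Mylip, Stard4 and Nr1h2 are genes that control the sterol regulatory element binding proteins (SREBPs), the uptake of lipoproteins and the movement of cholesterol in the cell. They were chosen by symbol for these roles, as 8 of the 24421 gene symbols counted. The rule uses no measured value, but the choice was made with earlier results of these data known. RNA was sequenced from 3 biological replicates in each of 4 groups of B16F10, a mouse melanoma cell line. The control received the vehicle DMSO, at 0.025% by its labels and at a lower percentage by the methods of the study. DAC (5-aza-2′-deoxycytidine, a nucleoside analog that inhibits DNA methylation) was given at 25 nM for 72 h. SFN (sulforaphane, an isothiocyanate from cruciferous vegetables) was given for 48 h, at 5 µM by the methods of the study and at 5 nM by the labels of the SFN samples. DAC+SFN cells received DAC at 25 nM for 72 h and, over the last 48 h, SFN at 5 µM by both sources, so by the labels the SFN dose differed between SFN and DAC+SFN. The labels of the other groups give no DMSO, and the methods dissolve SFN in water, so SFN and control may also differ in DMSO. All groups were cultures of this single line on plastic, without a tumor or a host.

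SREBPs are made as precursors in the membrane of the endoplasmic reticulum. When sterols are low, the escort protein Scap carries the precursor to the Golgi, where proteases release the part that enters the nucleus and switches on genes of cholesterol and fatty acid synthesis and of lipoprotein uptake. When sterols are high, Insig proteins bind Scap and hold the complex back. Liver X receptors (LXRs), which sense oxysterols, switch on sterol export and Mylip, a ubiquitin ligase that removes lipoprotein receptors. Processing of the SREBP precursors is a step of proteins, which counts of mRNA do not measure.

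Members of the family are themselves known targets of SREBPs, and the promoters of 2 of them are shown, Insig1 for its fall and Srebf2 for the sterol element letters it holds. The promoter windows were those of RefSeq on GRCm38.p6, from 250 bases before to 50 bases after an annotated start, and 7 of the 8 genes had a window that was used. The lines give the 250 bases before the start, read 5′ to 3′ on the plus strand. Insig1 lies at chr5:28071162-28071411 and Srebf2 at chr15:82147019-82147268. Capitals mark the NF-Y box CCAAT, which lies on the opposite strand in both, and the letters TCACCCCA of the sterol regulatory element in the Srebf2 promoter.
Insig1: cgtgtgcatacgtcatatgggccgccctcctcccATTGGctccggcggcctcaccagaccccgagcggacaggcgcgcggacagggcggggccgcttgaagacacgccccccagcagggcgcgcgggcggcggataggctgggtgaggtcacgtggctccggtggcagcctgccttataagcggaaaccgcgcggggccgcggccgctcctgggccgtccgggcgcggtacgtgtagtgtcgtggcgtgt
Srebf2: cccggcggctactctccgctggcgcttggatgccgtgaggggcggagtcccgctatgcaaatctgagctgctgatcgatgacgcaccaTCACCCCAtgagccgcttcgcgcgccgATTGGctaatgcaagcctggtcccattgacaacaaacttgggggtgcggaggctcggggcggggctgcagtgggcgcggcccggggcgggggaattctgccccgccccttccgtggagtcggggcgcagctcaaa

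The sterol element TCACNCCAC, searched on both strands, was in no window of the 7 genes and in 1.24% of all 32851 windows. The shorter letters TCACCCCA, chosen after the windows had been read, were in the Srebf2 window at -162 to -155 from the start and in 1.56% of all windows. The CCAAT box stood at -135 to -131 in Srebf2 and at -216 to -212 in Insig1, and 37.4% of all windows held one. The SP1 box GGGCGG, in 35.7% of all windows, occurred 3 times in the Insig1 window and 5 times in the Srebf2 window. TGACNNNGC, the core of the antioxidant response element, was in no window of the 7 genes and in 12.4% of all windows. The Insig1 window held 38 CG dinucleotides and the Srebf2 window 30, where the median over all windows was 7 and the upper quartile 20. These are matches of letters in a short window and are not measured binding sites.

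Each library held between 15880957 (DAC replicate 2) and 27291436 (SFN replicate 2) counts on genes. Levels are given as CPM (counts in each 1e+06 of the library) after scaling by trimmed mean of M values (TMM), and a gene was called where the adjusted p of edgeR's quasi-likelihood test, with the replicate number as a block, was under 0.05 over the 11638 genes tested. All 8 genes passed the filter of 1 CPM in at least 3 libraries, with between 328 counts (Stard4) and 7407 counts (Insig1) in a library. The replicate number mattered for this family. Replicate 2 was the lowest in 4 of 4 groups for Srebf2, Insig1, Insig2 and Stard4, in 3 of 4 for Srebf1 and Mylip, and in 0 of 4 for Scap and Nr1h2. Over the 4 groups, Insig1 averaged 243 CPM in replicate 1, 143 CPM in replicate 2 and 233 CPM in replicate 3. Library numbers in the labels follow the replicate numbers, so replicate and library series cannot be told apart. Melanocyte markers (Pmel, Dct, Tyrp1, Mlana, Mitf and Sox10) summed to between 20258 and 29219 CPM in every library, and markers of leukocytes and keratinocytes to less than 1 CPM. Fibroblast markers summed to between 19.1 and 375 CPM, with ranges that overlapped between all groups. Most of this was Col1a1, at 15.3 to 365 CPM. Col1a2 stood at 1.21 to 7.75 CPM, Pdgfra at 1.21 to 2.99 CPM and Dcn at 0 to 0.04 CPM. The part of these genes in the results was not tested.

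Per kilobase of annotated exon, Insig1 was the most abundant of the 8 in control, at 87.3 ± 17.7 CPM per kb (SD, n = 3). Srebf2 followed at 36.3 ± 1.93, Insig2 at 27.5 ± 6.04 and Srebf1 at 23.2 ± 1.52 CPM per kb. Then came Nr1h2 at 16.8 ± 0.70 and Scap at 15.4 ± 1.28 CPM per kb. Mylip, at 7.18 ± 0.85, and Stard4, at 6.20 ± 1.51 CPM per kb, were the lowest. The ranges of Insig2 and Srebf1, of Nr1h2 and Scap, and of Mylip and Stard4 overlapped in control, and other neighbours in this order did not. With DAC+SFN, Srebf1 had fallen to 17.4 ± 1.33 CPM per kb, beside 17.9 ± 2.55 for Nr1h2 and 17.4 ± 1.44 for Scap, so that these 3 no longer stood apart.

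**Figure D1:**
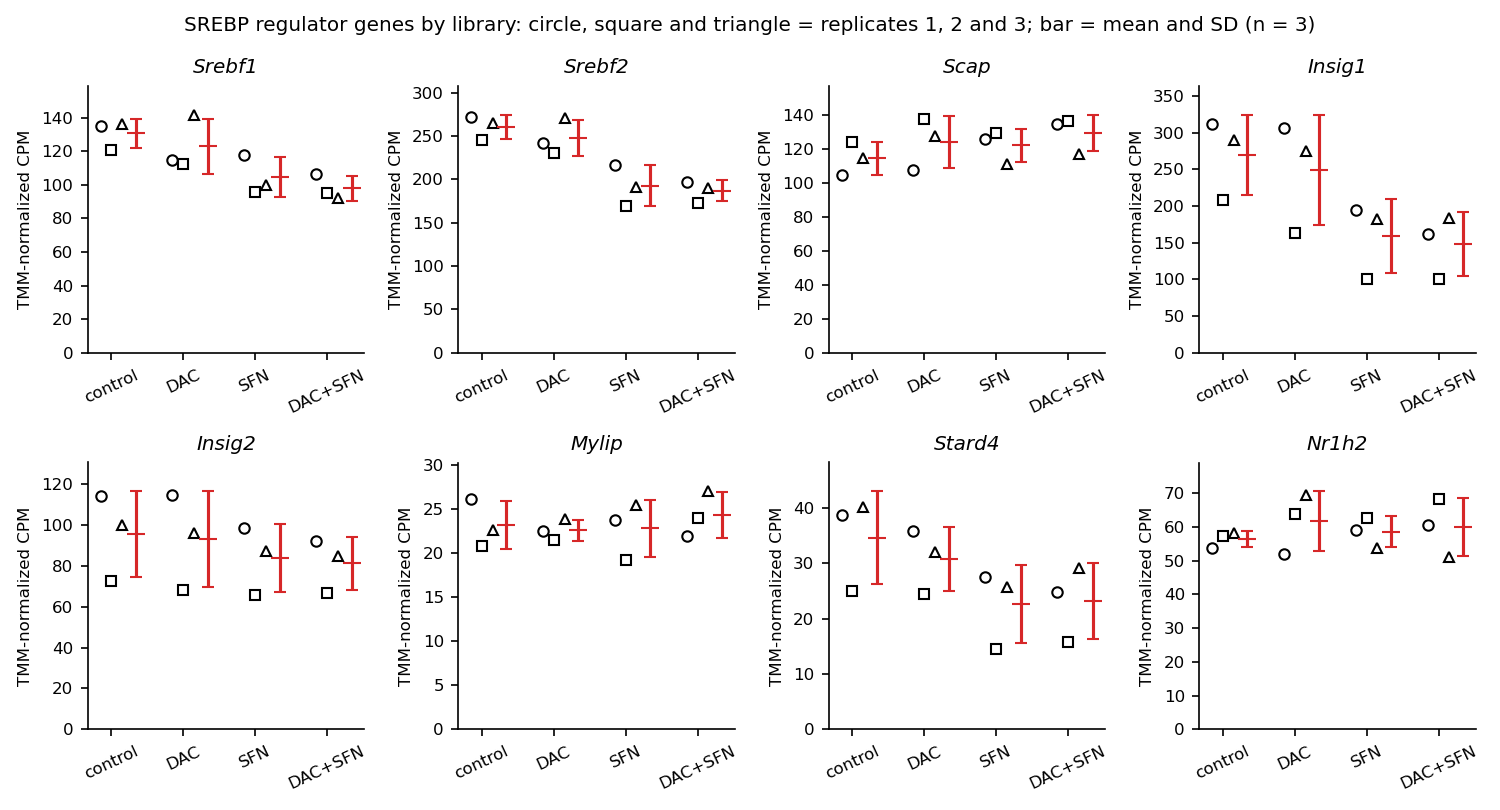
TMM-normalized CPM (linear axis from 0) of the 8 genes in each of the 12 libraries by group, with circles, squares and triangles for replicates 1, 2 and 3 and red bars for the mean and SD (n = 3). Insig1, Srebf1 and Srebf2 lay below every control library in all SFN and DAC+SFN libraries, and the squares of replicate 2 were the lowest in all 4 groups for Srebf2, Insig1, Insig2 and Stard4.

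SFN lowered Srebf1, Srebf2, Insig1, Insig2 and Stard4, with or without DAC, and DAC alone called none of the 8 genes. With SFN compared to control, 5 of the 8 were lower and 0 higher, where 13.9% of all genes tested were called and 5.65% were called lower. With DAC+SFN compared to control, the same 5 were lower and 0 higher, where 31.6% of all genes were called and 14.7% lower. With DAC compared to control, 0 of the 8 were called, where 0.18% of all genes were, and the lowest unadjusted p was 0.0767 (Insig1). The median log2 fold change of the 8 genes was -0.25 with SFN, -0.32 with DAC+SFN and -0.06 with DAC, and that of all genes tested was 0.00, 0.01 and 0.00. Without the replicate number in the model, 0 of the 8 were called with SFN and 2 with DAC+SFN (Srebf1 and Srebf2), and without the libraries of replicate 2 the counts were 3 and 5. The comparisons with control share the control libraries. The fold changes were moderate, and none of the 8 passed a fold change of 2. CPM is a share of the library, and fewer cells that express a gene cannot be told apart from less of its RNA per cell.

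Srebf2 encodes SREBP-2, the factor that mainly drives cholesterol synthesis and lipoprotein uptake. In replicates 1, 2 and 3 it stood at 272, 245 and 265 CPM in control and at 242, 229.8 and 270.2 CPM with DAC. With SFN the values were 217, 169.6 and 192 CPM, and DAC+SFN gave 197, 173 and 189.7 CPM. All 6 libraries with SFN, alone or with DAC, lay below all 6 without it. The log2 fold change was -0.44 with SFN (SE 0.062, adjusted p = 0.000335) and -0.48 with DAC+SFN (SE 0.062, adjusted p = 6.70e-05), or 0.737 and 0.715 times control. DAC alone gave -0.08 (adjusted p = 0.727). Within replicates 1, 2 and 3, the log2 difference of DAC+SFN from control was -0.47, -0.50 and -0.48.

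Srebf1 encodes the SREBP-1 proteins, which mainly drive fatty acid synthesis. Its control libraries held 135, 121 and 136 CPM and the DAC libraries 115, 112 and 142 CPM. With SFN it stood at 118, 95.8 and 100.1 CPM, and with DAC+SFN at 106, 95.2 and 92.3 CPM. The SFN and DAC+SFN libraries were all below control, while SFN replicate 1 lay within the range of DAC. The log2 fold change was -0.32 with SFN (SE 0.083, adjusted p = 0.0187) and -0.41 with DAC+SFN (SE 0.084, adjusted p = 0.00195). The SFN call was lost without control replicate 1 (adjusted p = 0.0591), control replicate 2 (0.0655), SFN replicate 2 (0.0794) or SFN replicate 3 (0.114). The 3 annotated starts of Srebf1 share its count, and 109 bases of the gene overlap Rai1 on the opposite strand. Whether the counting used strand is not given in the sources used here.

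The ratio of Srebf2 to Srebf1 counts, examined after the values had been seen, was 2.01, 2.03 and 1.95 in control and 1.84, 1.77 and 1.91 with SFN. The SFN ratios were all lower, and the exact two-sided permutation test gave p = 0.1, the smallest that 3 against 3 allows. With DAC+SFN the ratios were 1.85, 1.82 and 2.06, which overlapped control (exact permutation p = 0.4). Srebf2 hosts the microRNA gene Mir33 in an intron, and the files held 0 counts for it in all 12 libraries. The libraries were made from poly(A) RNA, so these counts cannot show whether the microRNA was present.

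Scap encodes the escort protein that carries SREBP precursors to the Golgi. It stood at 105, 124 and 115 CPM in control, 108, 138 and 127 CPM with DAC, 126, 129 and 111 CPM with SFN, and 135, 136 and 117 CPM with DAC+SFN. The 4 groups overlapped. With DAC+SFN the log2 fold change was 0.18 (95% interval 0.015 to 0.34), with an unadjusted p of 0.0345 and an adjusted p of 0.0889, and its 3 replicates were all higher than their control. With SFN alone the value was 0.09 (adjusted p = 0.457). This value rested on single libraries. Without DAC+SFN replicate 3 it was 0.23 and passed the test (adjusted p = 0.0358), and without DAC+SFN replicate 1 it was 0.10 (adjusted p = 0.401).

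Insig1, a retention protein that is itself an SREBP target, had the largest fall of the 8 genes. It stood at 312, 208 and 290.0 CPM in control and at 307, 164 and 275 CPM with DAC. With SFN the libraries held 194, 101 and 182 CPM, and those of DAC+SFN 161, 100.3 and 184 CPM. Every SFN and DAC+SFN library was below every control library, although the DAC library of replicate 2 reached into the ranges of SFN and DAC+SFN. The log2 fold change was -0.80 with SFN (SE 0.079, adjusted p = 1.87e-05) and -0.89 with DAC+SFN (SE 0.080, adjusted p = 3.73e-06), or 0.573 and 0.541 times control. DAC alone gave -0.15 (95% interval -0.32 to 0.018, adjusted p = 0.554).

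Insig2 encodes the second retention protein, whose mRNA is known to depend less on SREBPs. It stood at 114, 72.8 and 100.1 CPM in control, 115, 68.3 and 96.2 CPM with DAC, 98.5, 65.5 and 87.4 CPM with SFN, and 92.0, 66.9 and 84.7 CPM with DAC+SFN. The groups overlapped, since replicate 2 was low in each, and the fall was seen within the replicate numbers. Within replicates 1, 2 and 3 the log2 difference from control was -0.21, -0.15 and -0.20 in SFN cells and -0.31, -0.12 and -0.24 in DAC+SFN cells. The log2 fold change was -0.19 with SFN (SE 0.059, adjusted p = 0.0470) and -0.22 with DAC+SFN (SE 0.059, adjusted p = 0.00991). The SFN call was lost when any library of control or SFN was left out, with adjusted p between 0.102 and 0.154. With DAC+SFN it was lost without DAC+SFN replicate 1 (adjusted p = 0.0675).

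**Figure D2:**
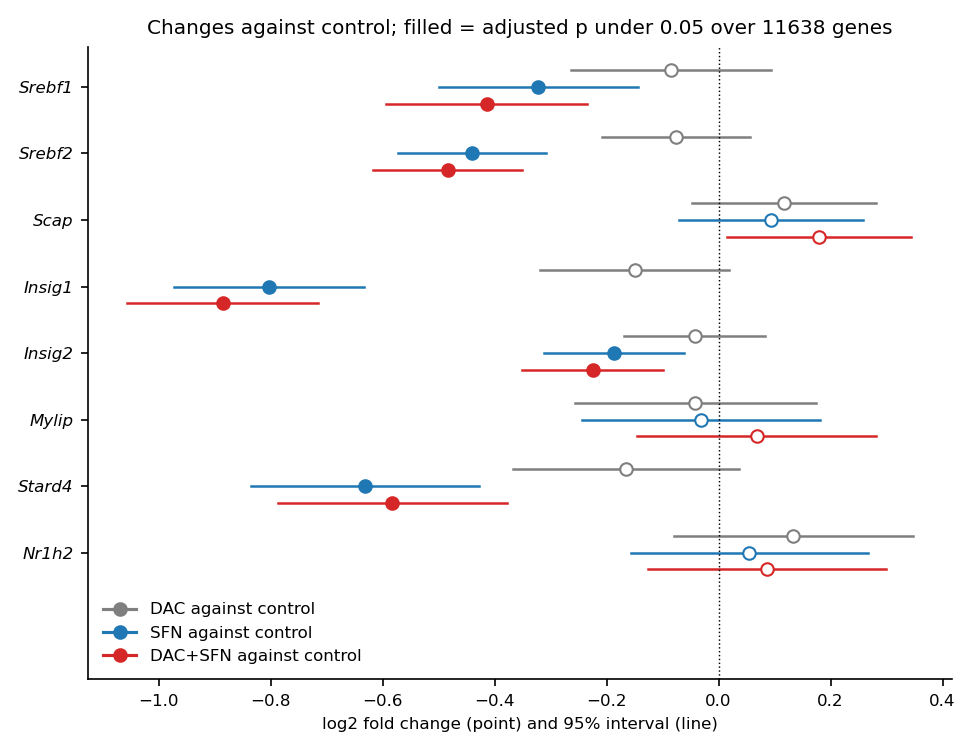
Log2 fold change (points) and 95% interval (lines) of the 8 genes with DAC (grey), SFN (blue) and DAC+SFN (red) compared to control, with filled points at adjusted p under 0.05. Insig1 reached -0.89 with DAC+SFN, and the grey points of DAC were all open.

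The fitted fall of Insig1 was larger than that of Insig2 on the log2 scale. The ratio of Insig1 to Insig2 counts within a library, examined after the values had been seen, was 2.74, 2.86 and 2.90 in control and 2.67, 2.40 and 2.86 with DAC. With SFN it was 1.97, 1.53 and 2.08, and DAC+SFN gave 1.75, 1.5 and 2.18. All 6 libraries with SFN had a lower ratio than all 6 without it, also in replicate 2, where both genes were low. The mean ratio was 1.86 ± 0.290 with SFN and 1.81 ± 0.341 with DAC+SFN, compared to 2.83 ± 0.084 in control (SD, n = 3), and each exact two-sided permutation test gave p = 0.1, the smallest it allows. Over the 15 exact permutation tests of 3 ratios (the third was Insig1 to Scap), each p of 0.1 became 0.25 after Benjamini-Hochberg adjustment. Since 0.1 is the smallest p of this test, no ratio could have passed the threshold of a call, before or after adjustment. The tests, which did not use the replicate number, therefore cannot decide whether the ratios changed. The ratios were not corrected for length, since the length of each gene is the same in all libraries.

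**Figure D3:**
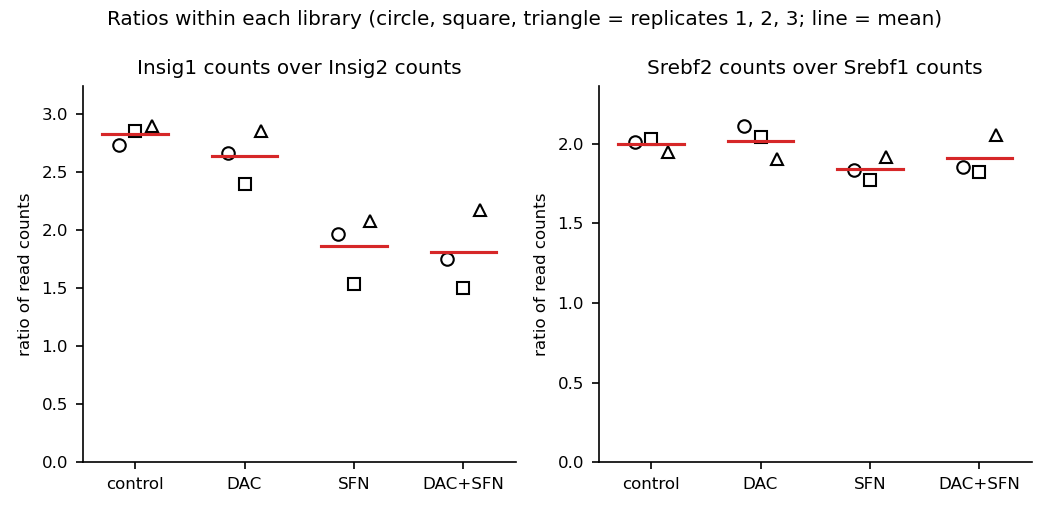
Ratio of Insig1 to Insig2 counts (left) and of Srebf2 to Srebf1 counts (right) in each library, on linear axes from 0, with circles, squares and triangles for replicates 1, 2 and 3 and a red line for the mean. On the left the SFN and DAC+SFN libraries lay between 1.5 and 2.18, below all control and DAC libraries. On the right the groups lay close together, with DAC+SFN overlapping control.

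Stard4 encodes a soluble carrier that moves cholesterol between membranes, and its gene is a known SREBP target. It was the least abundant per length, at 38.8, 24.9 and 40.2 CPM in control and 35.8, 24.4 and 32.0 CPM with DAC. With SFN it stood at 27.5, 14.6 and 25.8 CPM, and with DAC+SFN at 24.9, 15.7 and 29.2 CPM. SFN replicates 1 and 3 overlapped control replicate 2, while within each replicate number Stard4 was lower with SFN, by log2 differences of -0.50, -0.77 and -0.64. The log2 fold change was -0.63 with SFN (SE 0.095, adjusted p = 0.000568) and -0.58 with DAC+SFN (SE 0.096, adjusted p = 0.000446). DAC gave -0.16 (adjusted p = 0.592).

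Mylip and Nr1h2, on the LXR side, passed the test in no comparison of all libraries. Mylip, the ubiquitin ligase also called IDOL, stood between 20.8 and 26.2 CPM in control, 21.4 and 23.8 CPM with DAC, 19.2 and 25.5 CPM with SFN, and 21.9 and 27.0 CPM with DAC+SFN. Its log2 fold change was -0.03 with SFN (95% interval -0.24 to 0.18) and 0.07 with DAC+SFN (-0.15 to 0.28). Nr1h2, which encodes LXR beta, stood at 53.7, 57.3 and 58.1 CPM in control and at 60.6, 68.3 and 51.2 CPM with DAC+SFN. Its log2 fold change was 0.05 with SFN (-0.16 to 0.27) and 0.09 with DAC+SFN (-0.13 to 0.30), and the groups overlapped. When all 4 libraries of replicate 3 were left out, Nr1h2 passed the test with DAC+SFN at 0.20 (adjusted p = 0.0495), while without those of replicate 2 it was -0.01 (adjusted p = 0.98). Changes within these intervals could not be told from 0 with 3 replicates.

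**Figure D4:**
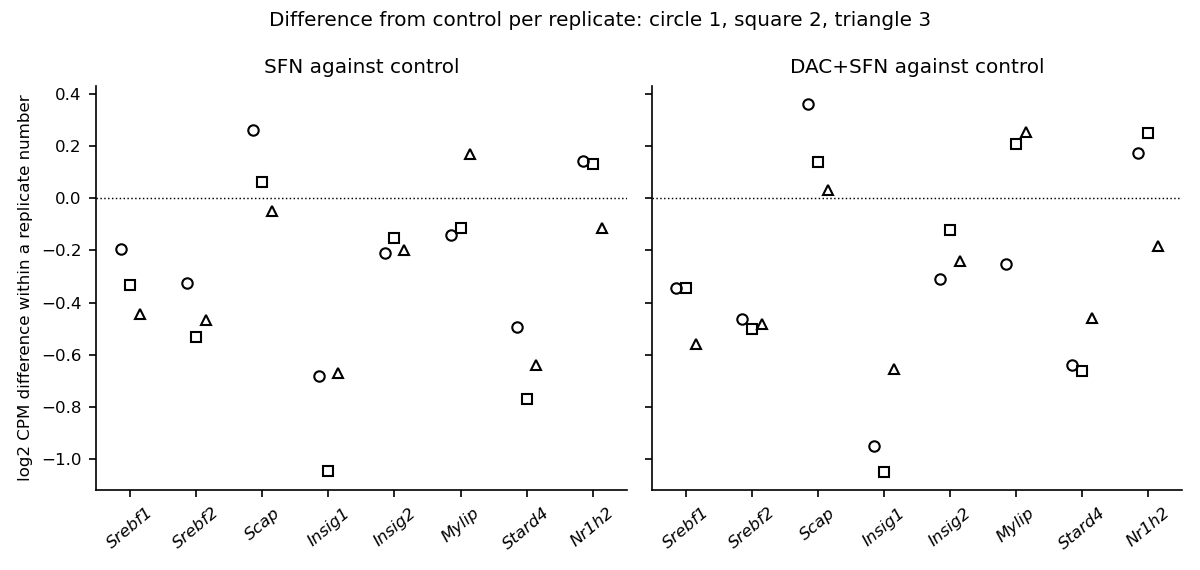
Log2 CPM difference of SFN (left) and DAC+SFN (right) from the control library of the same replicate number, for each of the 8 genes, with circles, squares and triangles for replicates 1, 2 and 3. All 3 points of Srebf1, Srebf2, Insig1, Insig2 and Stard4 lay below 0 in both panels, and those of Mylip and Nr1h2 lay on both sides.

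The comparisons between treatments asked whether DAC changed these genes in the presence of SFN, and SFN in the presence of DAC. With DAC+SFN compared to DAC, Srebf1, Srebf2, Insig1, Insig2 and Stard4 were lower (5 of 8, and 0 higher), where 16.1% of all genes were called and 6.6% lower. Insig1 stood at -0.74 on the log2 scale (SE 0.080, adjusted p = 6.27e-05), Srebf2 -0.41 (SE 0.062, adjusted p = 0.000695), Stard4 -0.42 (SE 0.097, adjusted p = 0.0102) and Srebf1 -0.33 (SE 0.084, adjusted p = 0.0164). Insig2 was at the threshold, at -0.18 (adjusted p = 0.0488). Insig1, Stard4 and Insig2 overlapped between DAC+SFN and DAC in CPM, but each was lower in 3 of 3 replicates. Stard4 was lost without DAC replicate 2 (adjusted p = 0.0599) or DAC+SFN replicate 1 (0.0740), and Srebf1 without DAC replicate 3, where it moved from -0.33 to -0.20 (adjusted p = 0.0793). Insig2 was lost without DAC replicate 1, 2 or 3 (adjusted p = 0.241, 0.0524 and 0.0877) and without DAC+SFN replicate 1 or 3 (0.238 and 0.0638).

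With DAC+SFN compared to SFN, 0 of the 8 genes were called, where 1.61% of all genes were. The log2 fold changes lay between -0.09 (Srebf1) and 0.10 (Mylip), and none had an unadjusted p under 0.05. The interaction of DAC and SFN called 0 of the 8 genes, and edgeR called 0% of all genes, with 683 at an unadjusted p under 0.05. Among the 8, the lowest unadjusted p was that of Stard4, at 0.138 (log2 interaction 0.21, 95% interval -0.077 to 0.50, adjusted p = 0.942). For Insig1 the interaction was 0.07 (95% interval -0.17 to 0.31) and for Srebf2 0.03 (-0.15 to 0.22). By the labels the SFN dose differs between SFN and DAC+SFN, so dose and DAC cannot be told apart in these 2 comparisons.

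Most enzymes of cholesterol synthesis, which SREBPs are known to switch on, were lower as well. Of 19, 18 were lower and 0 higher with SFN (median log2 fold change -0.69), where 5.65% of all genes were lower, and 18 were lower and 0 higher with DAC+SFN (median -0.75), where 14.7% of all genes were. The exception was Hsd17b7, at -0.10 with SFN (adjusted p = 0.353) and 0.13 with DAC+SFN (adjusted p = 0.143). With DAC+SFN, Pmvk, a kinase of the mevalonate pathway, gave -1.10 (SE 0.085, adjusted p = 1.48e-06), falling from 45.1 ± 10.1 to 21 ± 3.22 CPM (SD, n = 3). Fdps, which makes farnesyl diphosphate, gave -1.06 (SE 0.105, adjusted p = 7.69e-06), and Acat2, an acetoacetyl-CoA thiolase, -0.97 (SE 0.135, adjusted p = 0.000124). Pmvk was the enzyme of this list called between DAC+SFN and SFN, at -0.36 (adjusted p = 0.0491). Without the 4 libraries of replicate 2, 13 of the 19 were called with SFN and 18 with DAC+SFN. With DAC alone 0 of the 19 were called, at a median of -0.15.

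Of 12 enzymes of fatty acid synthesis, 6 were lower and 0 higher with SFN, and 8 were lower and 0 higher with DAC+SFN, at medians of -0.31 and -0.35, beside 5.65% and 14.7% of all genes. Fasn, the fatty acid synthase, and Acaca, the acetyl-CoA carboxylase, passed neither test, at -0.10 (adjusted p = 0.369) and -0.02 (adjusted p = 0.846) with DAC+SFN. When all 4 libraries of replicate 1 were left out, 5 of the 12 were called with DAC+SFN. Fads1, a desaturase of polyunsaturated fatty acids, gave -0.67 with DAC+SFN (SE 0.066, adjusted p = 6.91e-06). Scd1 and Scd2, which make monounsaturated fatty acids, gave -0.63 (adjusted p = 1.67e-05) and -0.52 (adjusted p = 3.68e-05). Compared to DAC, DAC+SFN lowered 6 of the 12 and raised Me1, the cytosolic malic enzyme, by 0.23 (adjusted p = 0.0315).

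Of the 13 partners of SREBP processing and Insig turnover, 1 was called with SFN, where 13.9% of all genes were, and 3 with DAC+SFN, where 31.6% were, so neither count stood above the share over all genes. With SFN, 1 was lower and 0 higher, namely Nploc4, which acts with the ATPase Vcp in protein removal (-0.22, adjusted p = 0.0221). With DAC+SFN, 2 were higher and 1 lower, at a median of -0.05. Erlin2, which binds the SREBP, Scap and Insig complex, gave 0.17 (SE 0.055, adjusted p = 0.0279). Mbtps1, the site 1 protease that cuts SREBPs, gave -0.16 (SE 0.058, adjusted p = 0.0420), and Mbtps2, the site 2 protease, -0.08 (adjusted p = 0.504). These calls depended on single libraries and on other settings. With SFN 0 of the 13 were called without control replicate 2 or without SFN replicate 1, 2 or 3. With DAC+SFN 1 was called without control replicate 1 or 2, and 0 without control replicate 3 or DAC+SFN replicate 1. The DAC+SFN count was also 0 with only the groups compared in the fit and 1 with no filter on low counts. The SFN count was 1 and 2 under these settings. Without the libraries of replicate 2, 0 of the 13 were called in either comparison.

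**Figure D5:**
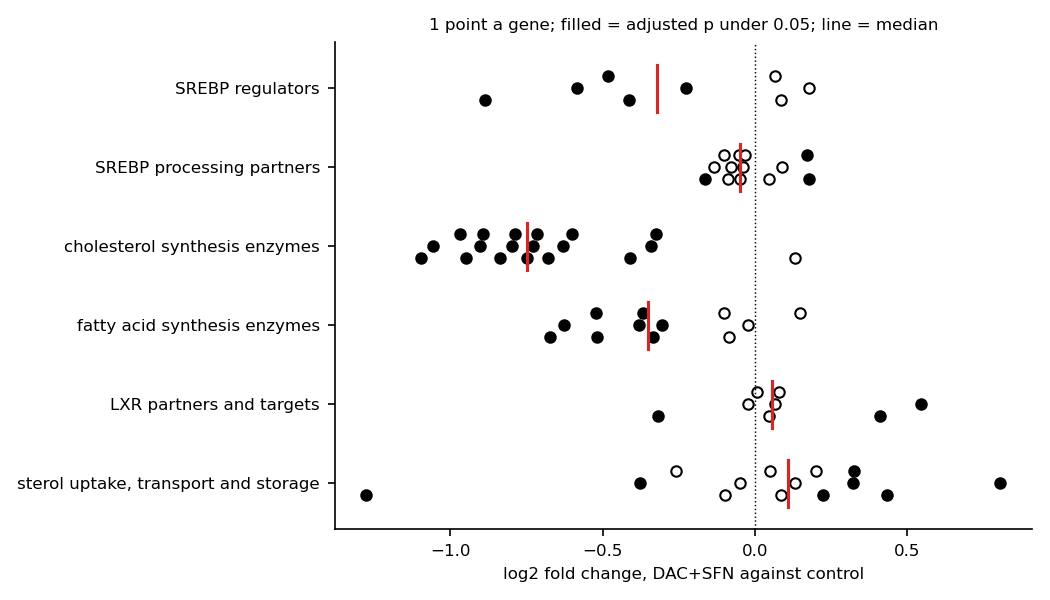
Log2 fold change of DAC+SFN compared to control for the 8 SREBP regulators and the related lists, with a point for each gene, filled at adjusted p under 0.05, and a red line for the median. Of the cholesterol synthesis enzymes 18 of 19 were filled and below 0, and the processing partners lay close to 0.

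Of 11 partners and targets of LXRs, 8 were tested. Nr1h3, which encodes LXR alpha, had at most 12 counts in a library, Abcg1 at most 1 and Arl4c 0, and all 3 were below the filter. With SFN, 1 of the 8 was higher and 1 lower, where 13.9% of all genes were called, and 1 of the 2 calls was lost without control replicate 1 or 3 or without SFN replicate 1, 2 or 3. With DAC+SFN, 2 were higher and 1 lower, at a median of 0.06, where 31.6% of all genes were called, so these counts of so few genes were near the share over all genes. Abca1, the sterol exporter, gave 0.55 with DAC+SFN (SE 0.077, adjusted p = 0.000131), from 24.4 ± 4.63 CPM in control to 35.8 ± 7.10 CPM (SD, n = 3), and 0.19 with SFN (adjusted p = 0.114). It was also higher with DAC+SFN than with SFN, by 0.35 (adjusted p = 0.0379). Smpdl3a, a secreted phosphodiesterase, gave 0.41 (adjusted p = 0.000464), while Lpcat3, an acyltransferase of phospholipids, gave -0.32 (adjusted p = 0.000846). Mylip, a known LXR target too, did not pass the test, as given above.

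Of 14 other genes of sterol uptake, transport and storage, 3 were higher and 2 lower with SFN, and 5 were higher and 2 lower with DAC+SFN, at medians of 0.05 and 0.11, where 13.9% and 31.6% of all genes were called. Vldlr, a lipoprotein receptor that Mylip also acts on, gave -1.62 with SFN (SE 0.189, adjusted p = 7.29e-05) and -1.28 with DAC+SFN (SE 0.186, adjusted p = 0.000168), from 6.82 ± 2.03 CPM in control to 2.23 ± 0.80 and 2.87 ± 1.30 CPM (SD, n = 3). Lipa, the lysosomal lipase that frees cholesterol from lipoproteins, gave 0.69 with SFN (SE 0.058, adjusted p = 5.88e-06) and 0.81 with DAC+SFN (SE 0.058, adjusted p = 8.65e-07). Gramd1b, which carries cholesterol from the plasma membrane to the endoplasmic reticulum, gave 0.44 with DAC+SFN (adjusted p = 0.00067). With SFN 2 of the 14 were called without control replicate 1 or 2 or without SFN replicate 1 or 2. With DAC+SFN 4 were called without control replicate 2 or DAC+SFN replicate 1, but 8 without control replicate 3 and 9 without DAC+SFN replicate 3. Without the 4 libraries of replicate 2 the counts were 2 and 4. In each of the 5 lists, DAC alone called 0 genes.

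The genes whose pattern lay nearest to each called member were named by the root mean square difference of log2 CPM over the 12 libraries, each gene centred within its replicate number. Nearest to Insig1 were Lss (0.053), Nsdhl (0.055) and Cyp51 (0.058), enzymes of cholesterol synthesis, where the median over the 11637 other genes was 0.414. Near Srebf2 were Slc25a1 (0.053), the mitochondrial citrate carrier, and Tmcc2 (0.057), with a median of 0.248. Nearest to Srebf1 were Tfeb (0.044), a transcription factor of lysosomal genes, Ttyh3 (0.062) and Lsm4 (0.063), with a median of 0.223. For Stard4 the nearest genes were Dstyk, Srd5a1 and Cars, at 0.078 to 0.082, with a median of 0.309. For Insig2 they were Rdh11, Morc4 and Slc37a3, at 0.033 to 0.036, with a median of 0.154. Insig2 itself varied by 0.103 around its replicate means. All libraries are shared between the genes compared, so these values are a description.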

How the data were processed

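Poly(A) RNA of 12 B16F10 cultures was sequenced as single-end reads of a stranded kit. The authors used Trimmomatic 0.38 for trimming and TopHat 2.1.1 for alignment to mm10, kept reads aligned to a single place and counted them per gene with htseq. The deposited files hold these raw counts, with no normalization. The annotation and the strand setting of the counting are not given in the sources used here. The authors used edgeR with a batch term that is not described.

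The 11638 of 24421 genes that reached 1 CPM in 3 or more libraries were scaled by TMM and tested with edgeR 4.0.16 (R 4.3.3, legacy quasi-likelihood fit, two-sided, Benjamini-Hochberg adjustment) in 1 model of all 12 libraries, with condition and replicate number as terms. Fold changes carry a prior count of 0.125 and log2 CPM a prior count of 2. SE was taken from the fold change and the F statistic. Same-numbered libraries deviated together (correlations of 0.27 to 0.732 in 18 of 18 pairs), so the number was kept as a block. Pairs with different numbers averaged -0.267, which is not a separate comparison, since deviations from a group mean sum to 0. At 1 CPM a library holds 15.9 to 27.3 counts.

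Lengths and positions came from GENCODE M21 (mm10), promoters from RefSeq (GRCm38.p6). The members and lists were chosen with earlier results of these data known. Named beside the members are the 3 genes with the largest called change with DAC+SFN in each list, Mbtps1, Mbtps2, Nr1h3 and Abca1, and the 3 genes nearest in pattern to each called member. Nploc4, Hsd17b7, Fasn, Acaca and Me1 were named after their values were seen. Some genes that these rules name are not reported here. Alternatives were DESeq2 1.42.0, its size factors, other filters, no replicate block, only the groups compared, the study's fold change of 2, libraries left out and, added after seeing the data, the version 4 fit of edgeR. Plots were made in Python 3.11.15 (matplotlib 3.10.9).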

Additional observations from a re-analysis of the deposited data

How the results depend on the processing

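The replicate block carried most calls. With no replicate block, 0 of the 8 genes were called with SFN, 2 with DAC+SFN compared to control (Srebf1, adjusted p = 0.0338, and Srebf2, adjusted p = 0.0141) and 0 compared to DAC. Insig1 then had an adjusted p of 0.254 with SFN and 0.0821 with DAC+SFN, and its log2 fold change kept its sign under all 16 alternatives. Without the block, 0 genes of the 5 related lists were called with SFN. With DAC+SFN 7 cholesterol and 3 fatty acid synthesis enzymes were called, 1 LXR gene, 3 genes of sterol uptake, transport and storage, and 0 processing partners, and of the genes named Pmvk, Fdps, Fads1, Smpdl3a, Vldlr and Lipa were among them. With the fold change of 2 added, 0 of the 8 were called in each comparison. With only the groups compared in the fit, 3 were called with DAC+SFN compared to DAC. With libraries left out, the 5 calls ranged from 3 to 4 with SFN, from 4 to 7 with DAC+SFN and from 3 to 5 compared to DAC, and with the 4 libraries of replicate 2 left out they were 3, 5 and 3. DAC, DAC+SFN compared to SFN and the interaction stayed at 0 under every alternative run. Srebf1 and Srebf2 with DAC+SFN compared to control were called under 16 of 16 alternatives, and Insig2 with SFN under 5 of 16.

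Values that changed sign were all small. The Insig2 interaction of 0.0042 was -0.0061 without the filter on low counts and -0.0097 with no replicate block. With libraries left out, Mylip ranged from -0.125 to 0.0704 with DAC, from -0.14 to 0.071 with SFN, from -0.034 to 0.231 with DAC+SFN and from -0.011 to 0.207 for DAC+SFN compared to SFN. Nr1h2 ranged from -0.016 to 0.245, from -0.00233 to 0.127, from -0.00756 to 0.202 and from -0.036 to 0.148 in these, from -0.174 to 0.15 compared to DAC and from -0.214 to 0.046 for the interaction. The interaction ranged from -0.11 to 0.12 for Srebf1, from -0.033 to 0.105 for Srebf2, from -0.125 to 0.038 for Scap, from -0.074 to 0.224 for Insig1 and from -0.053 to 0.065 for Insig2. For DAC+SFN compared to SFN the range was -0.087 to 0.029 for Srebf2, -0.177 to 0.00817 for Insig1, -0.089 to 0.00958 for Insig2 and -0.059 to 0.15 for Stard4. Scap compared to DAC ranged from -0.066 to 0.149, Srebf1 with DAC from -0.213 to 0.018 and Mbtps2 with DAC+SFN from -0.188 to 0.00446. The causes were not tested.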
